A study of Rattus norvegicus with 16 samples.

Results

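The genes that copy DNA and supply its nucleotides were followed in 2 tissues, liver and bone marrow, after rats had been given N-nitrosodiethylamine (NDEA), a nitrosamine that liver cytochrome P450 converts into a DNA-alkylating agent. The set holds 49 genes picked by gene name, out of 32623 gene records in the deposited table. All 49 names were found, each once. They cover origin licensing, the MCM helicase and its activators, the sliding clamp and its loader, the single-strand binding protein RPA, primase and the replicative polymerases, Okazaki fragment joining, dNTP synthesis, and the 2 genes that copy DNA methylation after replication (Uhrf1 and Dnmt1).

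RNA was measured in 16 libraries, 4 in each of 4 groups: NDEA liver, control liver, NDEA marrow and control marrow. All animals were female Big Blue rats, whose genome carries a transgenic vector with the cII and lacI reporter genes, used to score mutations, so the controls carry it too. They were 6 weeks old on arrival, had 1 week of acclimation, and were then gavaged for 28 days with NDEA at 10 mg/kg/day or with 0 mg/kg/day. Tissue was collected 3 days after dosing ended, so no value below was taken during exposure. Of 6 rats per dose group, 4 libraries per tissue were analysed here, and the labels do not say whether a liver and a marrow library with the same number came from 1 rat. The study asked how NDEA acts in these 2 tissues, alongside mutation assays that are not analysed here.

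The assay reads transcript 3′ ends, and counts therefore do not grow with transcript length. Total counts ran from 5000844 to 6863592 per liver library and from 2162182 to 5705705 per marrow library, with control marrow 1 the shallowest. Levels are given as scaled CPM, a gene's counts relative to all counts of the tested genes (CPM), after trimmed-mean scaling within a tissue. A count of 3 equals 0.422 to 0.570 CPM in a liver library and 0.503 to 1.26 CPM in a marrow library, which bounds what can be read from the lowest values. The hepatocyte markers, 12 of 12 detected, summed to 113000 to 134000 CPM in NDEA livers and 120000 to 148000 CPM in control livers, and 3 of the 12 were called higher with NDEA and 5 lower. Of the same 12 markers, 9 were at 0 in NDEA marrow and 8 in control marrow. The list still summed to 1080 to 1750 CPM in NDEA marrow and 806 to 1600 CPM in control marrow. In marrow 10 erythroid markers summed to 120000 to 159000 CPM in NDEA libraries and 132000 to 199000 CPM in control libraries.

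Before a cell divides, the origin recognition complex, Cdc6 and Cdt1 load the MCM helicase onto origins, and geminin (Gmnn) stops loading once replication has begun. Cdc45 and GINS then activate the helicase, and primase, the polymerases, the PCNA clamp and DNA ligase build the new strands from dNTPs made by ribonucleotide reductase, thymidylate synthase and thymidine kinase. Transcription of most of these genes is tied to entry into S phase through E2F factors. Adult hepatocytes are mostly quiescent, whereas bone marrow holds many dividing blood cell precursors.

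Promoter letters are shown because many of the genes are known E2F targets. RefSeq promoters of build GRCr8 were matched for 41 of the 49 genes. The E2F-type letters searched were TTTCCCGC, TTTCGCGC, TTTGCCGC and TTTGGCGC, on both strands, in the 250 bases before the start. They occurred in 10 of the 41 promoters (24.4%), those of Orc3, Orc5, Mcm2, Mcm5, Mcm6, Mcm7, Gins1, Gins3, Pola1 and Tyms, and in 1.7% of 33469 promoters (2.2% of 21851 coding ones). The letters CCAAT, on either strand, occurred in 21 of 41 (51.2%) and in 34% of all promoters. TTTGAA, the letters of a cell cycle homology region, occurred in 3 of 41 (7.3%) and in 16.2% of all. Of 8 matched genes called in liver or in the difference between tissues, 1 held E2F-type letters (Tyms), as did 9 of the 33 other matched genes. A match describes letters in this window and is not a measured site. The 150 bases before the start are printed for 3 genes called in liver that hold no E2F-type letters there (Dut, Lig1 and Tk1). They are also printed for 3 genes not called in liver that hold them (Tyms, Mcm2 and Mcm6). They are written 5′ to 3′ in the direction of transcription, with E2F-type letters of either strand in capitals, and overlapping matches form 1 longer run. The windows lie at chr3:132952280-132952429 (plus strand), chr1:83243020-83243169 (plus strand), chr10:103544778-103544927 (minus strand), chr9:120776084-120776233 (minus strand), chr4:122918095-122918244 (minus strand) and chr13:42404353-42404502 (minus strand), in the order below.
Dut: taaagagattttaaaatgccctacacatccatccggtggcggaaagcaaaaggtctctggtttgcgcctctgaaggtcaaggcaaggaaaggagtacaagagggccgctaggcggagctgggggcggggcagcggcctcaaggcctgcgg
Lig1: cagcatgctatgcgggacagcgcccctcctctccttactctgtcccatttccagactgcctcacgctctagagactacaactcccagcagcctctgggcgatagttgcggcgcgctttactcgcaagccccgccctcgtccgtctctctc
Tk1: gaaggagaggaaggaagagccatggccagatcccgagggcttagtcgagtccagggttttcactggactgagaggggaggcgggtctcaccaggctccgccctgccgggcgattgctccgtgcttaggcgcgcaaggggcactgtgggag
Tyms: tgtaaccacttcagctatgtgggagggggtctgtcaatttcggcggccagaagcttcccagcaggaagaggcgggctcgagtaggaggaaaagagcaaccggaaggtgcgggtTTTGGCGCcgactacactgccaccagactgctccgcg
Mcm2: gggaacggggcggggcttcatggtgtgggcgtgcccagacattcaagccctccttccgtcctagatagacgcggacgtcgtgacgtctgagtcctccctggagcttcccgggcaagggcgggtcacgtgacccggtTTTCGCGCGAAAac
Mcm6: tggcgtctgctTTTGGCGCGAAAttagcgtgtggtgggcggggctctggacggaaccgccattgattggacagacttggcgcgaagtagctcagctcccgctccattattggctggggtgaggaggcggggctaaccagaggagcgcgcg
In these windows Mcm2 and Mcm6 each hold a run in which matches on both strands overlap, Tyms holds a single match, and the other 3 hold none.

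In liver, 5 of the 42 tested genes rose with NDEA and none fell, with changes of 2.02 to 4.13-fold. The 5 were Lig1, which seals Okazaki fragments, Dut, which removes dUTP, Tk1, the thymidine salvage kinase, Rrm1, the large subunit of ribonucleotide reductase, and Rfc3, a clamp loader subunit. The test was limma-voom with Benjamini-Hochberg adjustment over all 9668 liver genes tested, called at an adjusted p under 0.05. Over all those genes 6.61% were called, 2.87% higher (277 genes) and 3.74% lower (362 genes). Without control liver 3 these counts were 167 higher and 272 lower. Scaling by library totals alone called 390 higher and 239 lower and moved the median of all genes to 0.12 on the log2 scale, and under it the same 5 genes of the set and Pcna were called. Estimates lay above 0 for 37 of the 42 (88.1%), against 51.2% of all genes, and the median log2 fold change was 1.03 for the set and 0.01 for all genes. At an unadjusted p under 0.05 stood 16 of the 42 (38.1%) and 18.7% of all genes.

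The low-count filter bears on these counts. It removed 7 of the 49 genes in liver (Orc1, Cdc6, Gins2, Gins3, Pole2, Rrm2 and Uhrf1). Of the 42 that passed, 33 were over its level in all 4 NDEA libraries and 23 in all 4 control libraries, so some passed partly through the group in which they were abundant, and the share above 0 is given as a description. The 5 called genes were among the 23 that were over the level in all 8 libraries. In 11 genes the 4 NDEA values all exceeded the 4 control values (Lig1, Dut, Tk1, Rrm1, Rfc3, Pcna, Mcm6, Tyms, Mcm10, Orc5 and Rfc2), and in none were all 4 lower; over all genes 6.54% separated upward and 5.98% downward.

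**Figure D1:**
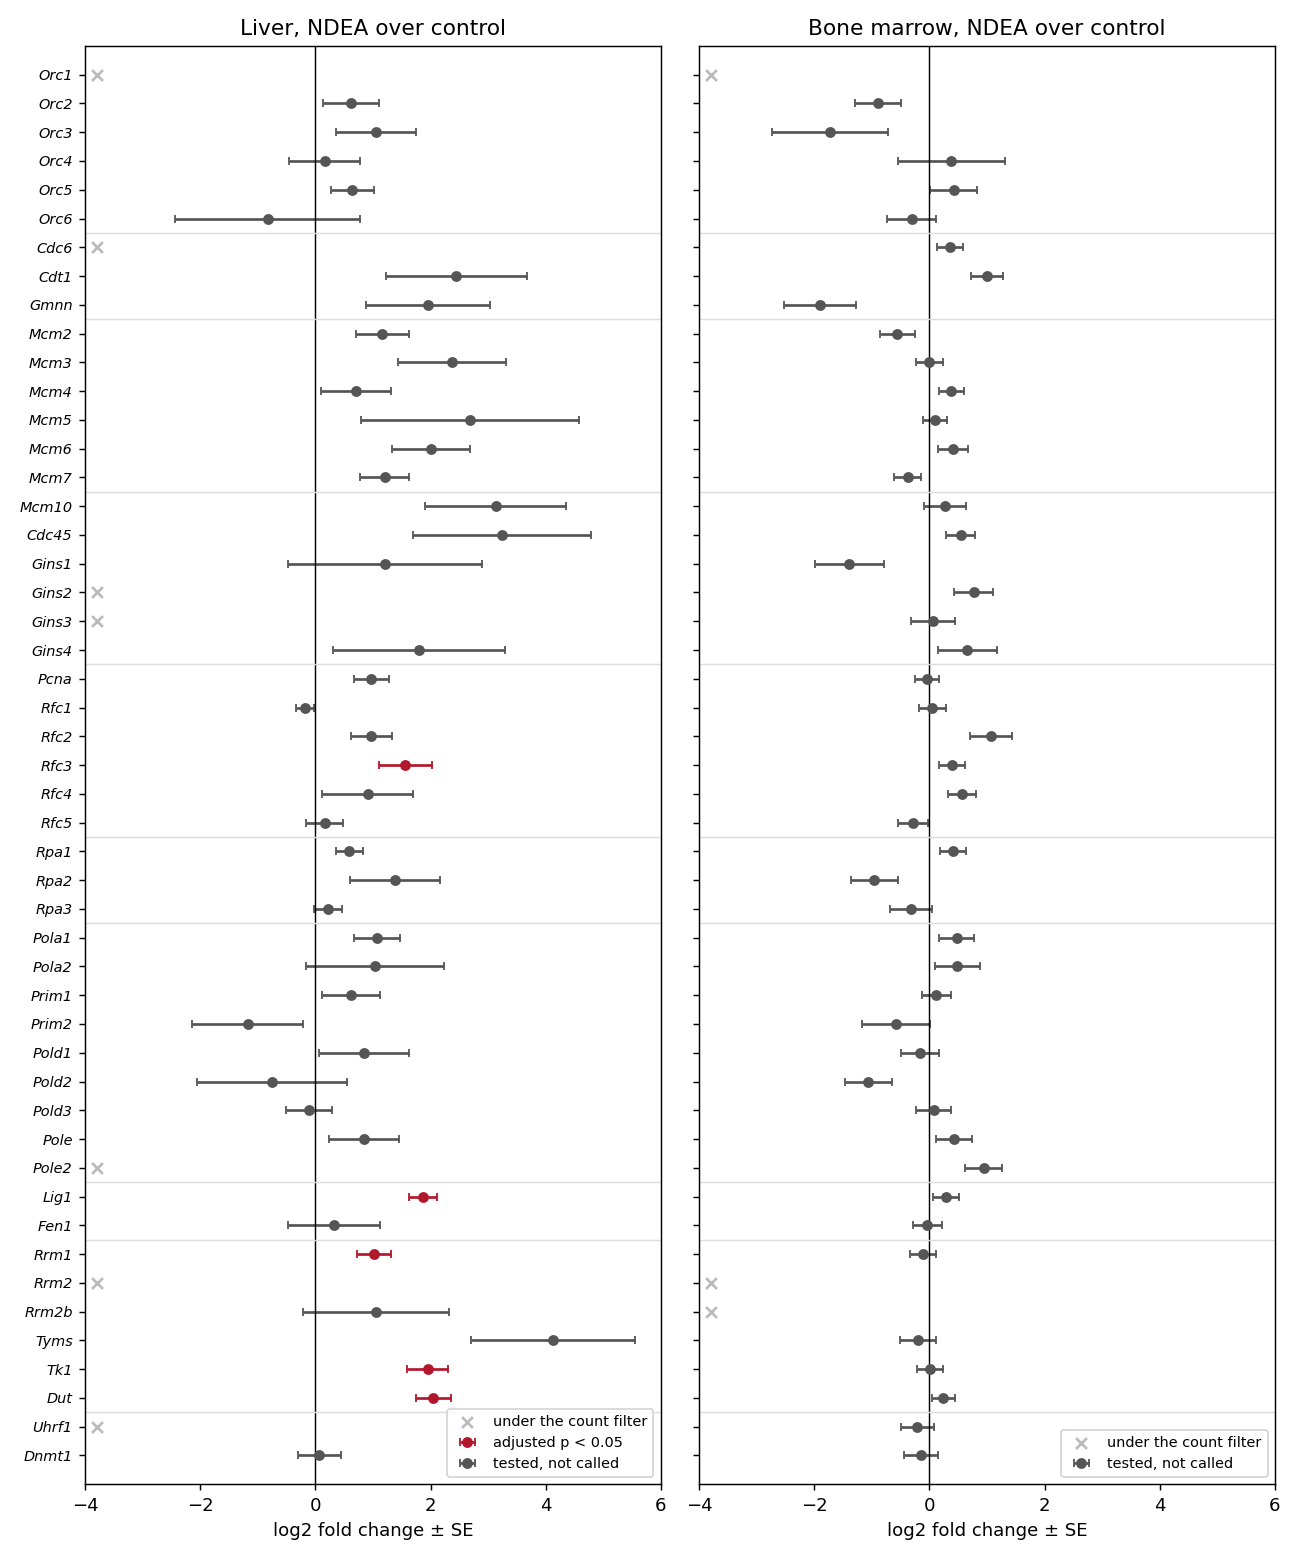
Log2 fold change of NDEA over control (x axis, with SE bars) for each of the 49 genes (y axis, in order of role) in liver on the left and bone marrow on the right. Red points passed an adjusted p of 0.05, dark points did not, and crosses at the left edge mark genes under the count filter; 5 liver genes and no marrow gene are red.

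Of the origin recognition complex, which marks where replication starts, none of the 5 tested subunits was called in liver. Their log2 fold changes ran from -0.83 for Orc6 to 1.05 for Orc3. In Orc5 the groups did not overlap, with 18.6, 11.4, 14.6 and 11.4 CPM in NDEA livers 1 to 4, against 7.96, 9.98, 10.5 and 7.56 CPM in control livers 1 to 4. Its log2 fold change was 0.64.

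The licensing factors were scarce in control liver. Cdc6, which brings the helicase to the origin complex, had 1.53, 4.37, 3.52 and 2.85 CPM in NDEA livers and 0 counts in all 4 control livers. With 3 counts over the control group taken as the floor, the mean of Cdc6 in NDEA livers was 23.6-fold above that floor. This ratio does not allow for the spread between libraries. Cdc6 was under the count filter in liver, and a fit with no filter called it, as it did Uhrf1. Both genes were at 0 counts in the control livers. The size and p-value of those calls therefore rest on the prior count added before taking logs, and they are not separate support. Cdt1, the partner of Cdc6 in loading, had 9.93, 6.08, 6.19 and 1.65 CPM in NDEA livers, against 0.312, 3.68, 0.541 and 0.737 CPM in control livers. The groups overlapped through NDEA 4 and control 2, and the log2 fold change of 2.45 (SE 1.22) was not called (adjusted p = 0.285, limma-voom). Geminin, the inhibitor of Cdt1, had 3.06, 6.84, 8.30 and 2.10 CPM in NDEA livers, against 0.468, 0.700, 4.15 and 0.922 CPM in control livers. Control 3 alone overlapped the NDEA range, and the log2 fold change of 1.95 (SE 1.08) was not called (adjusted p = 0.354, limma-voom).

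All 6 subunits of the MCM helicase had estimates above 0 in liver, with log2 fold changes of 0.70 to 2.69 and a median of 1.6, and none was called. Mcm6 had 8.56, 16.5, 20 and 8.09 CPM in NDEA livers, against 5.47, 2.45, 2.16 and 2.40 CPM in control livers, with no overlap. Its log2 fold change was 2.01 (SE 0.68, adjusted p = 0.0842, limma-voom). Mcm2 had 11.0, 9.11, 20.4 and 13.2 CPM in NDEA livers, against 3.90, 9.46, 5.59 and 5.90 CPM in control livers. NDEA 2 alone lay within the control range. The log2 fold change of Mcm2 was 1.16 and its adjusted p was 0.161 (limma-voom). Mcm5 was uneven, with 12.4, 11.0, 11.5 and 0.3 CPM in NDEA livers, against 2.19, 1.75, 0.541 and 0 CPM in control livers. NDEA 4 lay inside the control range, and the log2 fold change of 2.69 had an SE of 1.90 (adjusted p = 0.48, limma-voom). Without NDEA 4 the log2 fold change of Mcm5 was 3.99 and its adjusted p 0.0569 (limma-voom), and over 17 alternatives the adjusted p ran from 0.0226 to 0.642.

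Helicase activators showed wide errors. Mcm10, which helps convert the loaded helicase into its active form, had 7.79, 10.4, 11.7 and 3.75 CPM in NDEA livers, against 0.625, 3.33, 2.52 and 0 CPM in control livers. These groups did not overlap, yet the log2 fold change of 3.13 was not called (adjusted p = 0.156, limma-voom). Cdc45, a helicase cofactor, averaged 3.63 ± 2.24 CPM in NDEA livers and 0.672 ± 0.844 CPM in control livers (SD, n = 4 each). Of the GINS subunits, Gins2 averaged 2.06 ± 1.53 CPM in NDEA livers and 0.135 ± 0.270 CPM in control livers (SD, n = 4 each). Gins1 and Gins4 were tested and not called, and Gins2 and Gins3 were under the filter.

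Of the clamp and its 5 loader subunits, 1 was called. Rfc3 had 29.2, 16.5, 21.2 and 14.2 CPM in NDEA livers, against 9.37, 2.80, 5.77 and 12.5 CPM in control livers, with the nearest values 14.2 and 12.5. Rfc3 rose 2.94-fold (log2 1.56, SE 0.46, adjusted p = 0.0408, limma-voom). Leaving out any single library other than NDEA 4 ended the call of Rfc3, and over 18 alternatives its adjusted p ran from 0.00939 to 0.146. Pcna, the sliding clamp, had 40.4, 50.7, 35.4 and 37.2 CPM in NDEA livers, against 31.4, 21, 27.0 and 8.85 CPM in control livers, with no overlap. Its log2 fold change was 0.97 (SE 0.30, adjusted p = 0.0536, limma-voom), and Pcna passed the threshold in 7 of 18 alternatives (adjusted p from 0.022 to 0.339). Rfc1, the large loader subunit, was the most abundant gene of the set in liver, at 112 ± 8.14 CPM in NDEA livers and 130 ± 26 CPM in control livers (SD, n = 4 each), and its log2 fold change of -0.18 was not called. Rfc5 gave 0.17 on the same scale.

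RPA coats single-stranded DNA at the fork, and its subunits Rpa1, Rpa2 and Rpa3 had log2 fold changes of 0.22 to 1.38 in liver, with none called. Of the 9 primase and polymerase genes, 8 were tested and none was called. Their log2 fold changes ran from -1.18 for Prim2, the large primase subunit, to 1.07 for Pola1, the catalytic subunit of polymerase alpha. Pole2, an accessory subunit of polymerase epsilon, was under the liver filter at 2.87 ± 3.10 CPM in NDEA livers and 0.316 ± 0.631 CPM in control livers (SD, n = 4 each).

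Lig1 gave the smallest adjusted p of the set. It had 81.8, 89.1, 71.2 and 78.4 CPM in NDEA livers, against 12.6, 23.8, 33.7 and 23.0 CPM in control livers, so the lowest NDEA liver lay far above the highest control. It rose 3.66-fold (log2 1.87, SE 0.25, adjusted p = 1.98e-05, limma-voom) and passed in 18 of 18 alternatives. Fen1, the flap nuclease that acts with Lig1 on Okazaki fragments, had 1.83, 13.5, 5.20 and 2.40 CPM in NDEA livers, against 5.00, 5.78, 1.08 and 2.58 CPM in control livers. Fen1 groups overlapped apart from NDEA 2, and its log2 fold change of 0.32 was not called.

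Genes of dNTP supply held 3 of the 5 calls. Dut had 37.9, 58.1, 48.1 and 58.5 CPM in NDEA livers, against 13.9, 12.4, 9.56 and 12.0 CPM in control livers. Dut, whose product turns dUTP into the thymidylate precursor dUMP, rose 4.13-fold (log2 2.05, SE 0.30, adjusted p = 7.19e-05, limma-voom). With the mitochondrial share of counts as a covariate the adjusted p of Dut was 0.0512, the highest of 18 alternatives, and its log2 fold change was then 1.81. Tk1 had 48.1, 45.6, 44.4 and 27.7 CPM in NDEA livers, against 12.2, 12.6, 15.0 and 4.79 CPM in control livers. It rose 3.86-fold (log2 1.95, SE 0.36, adjusted p = 9.81e-04, limma-voom). In both genes every NDEA library lay well above every control library.

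Ribonucleotide reductase pairs the Rrm1 subunit with Rrm2 in S phase, or with the p53-inducible Rrm2b. Rrm1 had 26.9, 24.1, 23.3 and 24.7 CPM in NDEA livers, against 9.37, 13.5, 12.6 and 14.4 CPM in control livers. The NDEA values of Rrm1 were tight, and it rose 2.02-fold (log2 1.02, SE 0.30, adjusted p = 0.0405, limma-voom). Leaving out any single library other than NDEA 3 ended the call of Rrm1, and over 18 alternatives its adjusted p ran from 0.021 to 0.604, the highest being with the mitochondrial covariate. Rrm2 had 1.68, 0, 0 and 0.899 CPM in NDEA livers and 0 counts in all 4 control livers. With 2 of the NDEA livers at 0 as well, the groups overlapped. Rrm2 was under the liver filter and not tested, so no fold change is given for it. Rrm2b had 0.764, 3.04, 14.3 and 2.25 CPM in NDEA livers, against 1.09, 5.43, 8.83 and 0 CPM in control livers, with NDEA 3 apart and the rest overlapping (adjusted p = 0.716, limma-voom).

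Tyms, thymidylate synthase, had the largest estimate among tested genes of the set in liver. It was measured at 8.71, 11.8, 6.33 and 12.4 CPM in NDEA livers, against 0, 2.98, 4.33 and 0 CPM in control livers, with no overlap. The log2 fold change of 4.13 (SE 1.42) rests on control livers 1 and 4 at 0 counts and depends on the prior count added before taking logs. It was not called (adjusted p = 0.0897, limma-voom), and over 18 alternatives the adjusted p of Tyms ran from 0.00852 to 0.722, with 4 of them under the threshold. Uhrf1, which brings Dnmt1 to newly copied DNA, had 1.83, 3.42, 2.81 and 1.2 CPM in NDEA livers and 0 counts in all 4 control livers. With the control group set to 3 counts, the NDEA mean of Uhrf1 was 17.8-fold above that floor, again without allowing for the spread between libraries. Uhrf1 was under the liver filter. Dnmt1, the maintenance methyltransferase, averaged 10.9 ± 1.88 CPM in NDEA livers and 10.3 ± 2.66 CPM in control livers (SD, n = 4 each), a log2 fold change of 0.07.

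**Figure D2:**
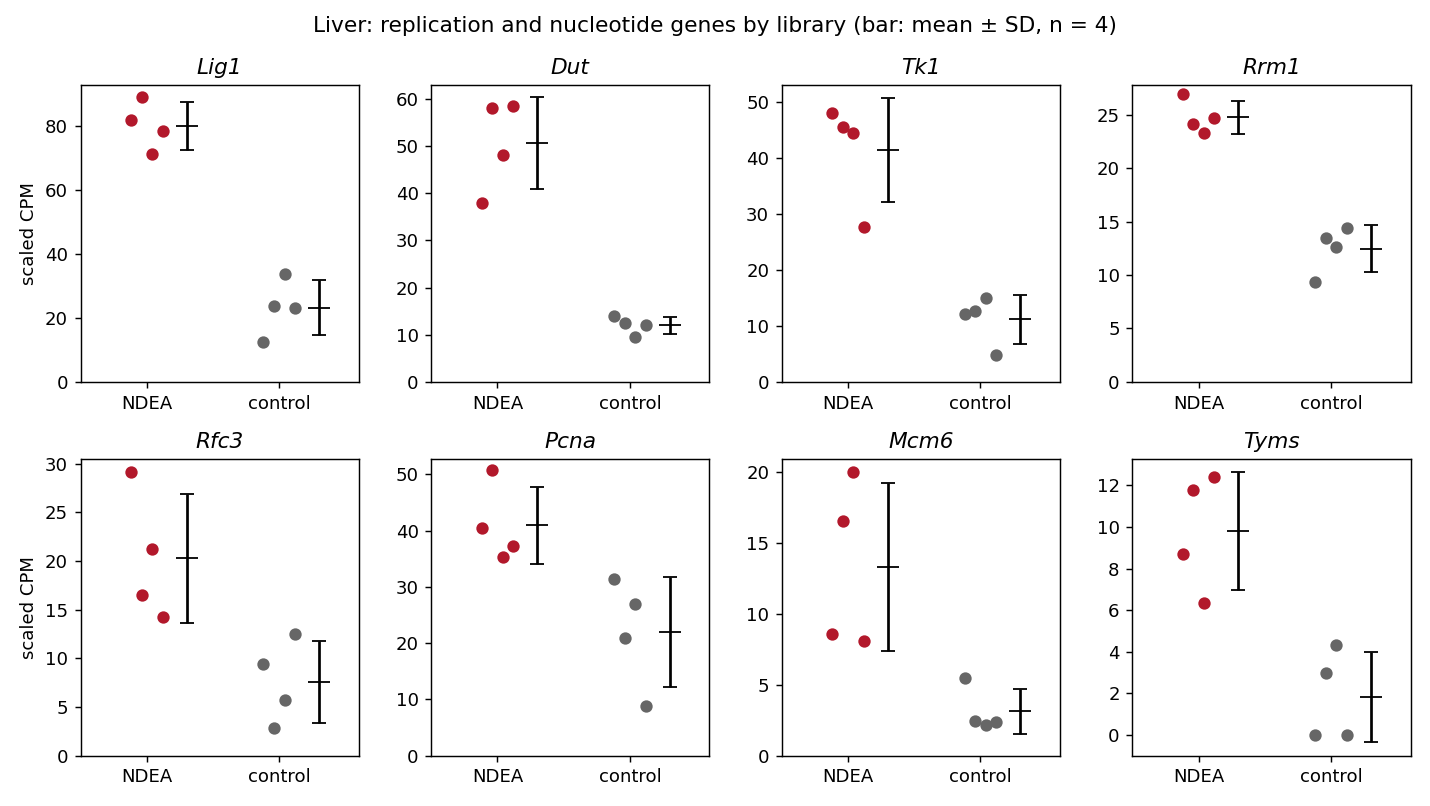
Scaled CPM (y axis) of Lig1, Dut, Tk1, Rrm1, Rfc3, Pcna, Mcm6 and Tyms in each liver library, NDEA in red and control in grey, with bars for mean ± SD of 4 libraries. In each panel the 4 NDEA livers lie above the 4 controls, most widely for Lig1, Dut and Tk1, while Tyms has 2 controls at 0. The genes drawn are all among the 11 of 42 tested genes whose liver groups did not overlap, so the separation follows from that choice.

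Summed over the 49 genes, the level was 792, 765, 782 and 678 CPM in NDEA livers 1 to 4, against 428, 427, 499 and 426 CPM in control livers 1 to 4. That is 0.0722 to 0.081% of all counts of an NDEA liver and 0.0404 to 0.0482% of those of a control liver. The median coefficient of variation of the tested genes was 0.353 in NDEA livers and 0.541 in control livers. Over all genes it was 0.282 in NDEA livers and 0.301 in control livers. Within control liver, where their counts were low, the genes varied more than the typical gene. In whole tissue, more cells of a type and more RNA per cell cannot be told apart.

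**Figure D3:**
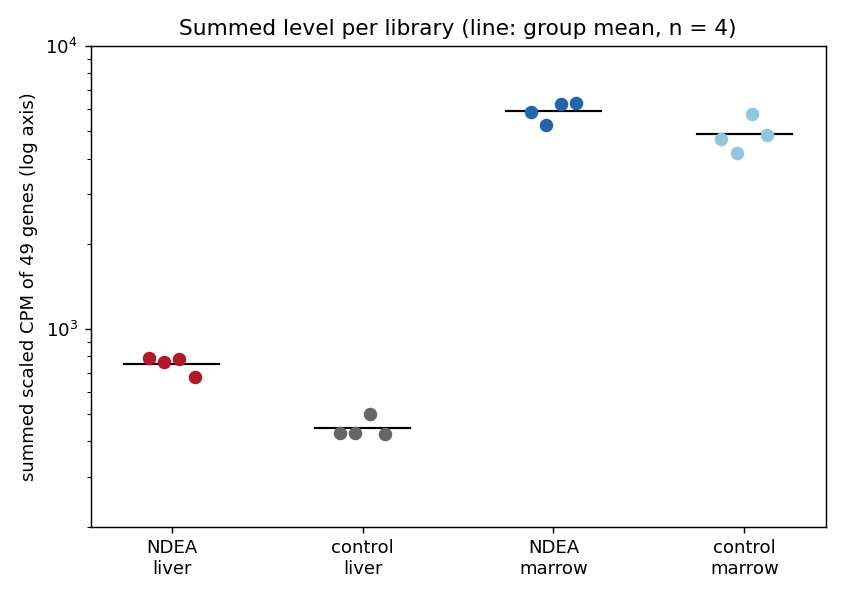
Summed scaled CPM of the 49 genes (y axis, log scale) in each of 16 libraries, with a line at each group mean. NDEA livers lie between 678 and 792 and control livers between 426 and 499, while the marrow groups, at 5270 to 6310 for NDEA and 4190 to 5750 for control, overlap.

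Other measures of the liver libraries are given beside these values. Some differed between the groups and others overlapped, and their part in the results was not tested. Summed markers of T and NK cells, 11 genes, were 16.0 to 27.4 CPM in NDEA livers and 5.25 to 15.0 CPM in control livers, with Cd4 at 0 in both groups and Cd3d and Cd3e at 0 in controls. None of the 3 tested T and NK markers was called. Stellate cell markers, 9 genes, summed to 423 to 498 CPM in NDEA livers and 237 to 338 CPM in control livers, with Col3a1 and Dcn called higher among 8 tested. Cholangiocyte markers, 7 genes, summed to 27.4 to 50.8 CPM in NDEA livers and 22.3 to 27.2 CPM in control livers, with Krt19 at 0 in both groups. Macrophage markers summed to 696 to 810 CPM in NDEA livers and 650 to 796 CPM in control livers, with Marco called higher (log2 0.64, adjusted p = 0.0238, limma-voom) and Vsig4 lower (log2 -0.94, adjusted p = 0.0145, limma-voom). Erythroid markers summed to 1140 to 3910 CPM in NDEA livers and 1580 to 3330 CPM in control livers. The neutrophil markers Mpo, Elane, Prtn3 and Ltf were at 0 in both liver groups. The mitochondrial genes took 20.09 to 22.36% of counts in NDEA livers and 16.21 to 20.58% in control livers.

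Other replication and nucleotide genes were described from a list of 78 further names, of which 76 were found. In liver 55 of them were tested, and the list had 3 called higher and none lower, 36 estimates above 0 and a median log2 fold change of 0.19. Top2a, the topoisomerase that untangles sister chromatids, averaged 72.1 ± 23.2 CPM in NDEA livers and 7.46 ± 7.68 CPM in control livers (SD, n = 4 each), a log2 fold change of 4.29 (adjusted p = 0.00127, limma-voom). Dctpp1, which hydrolyses modified dCTP, averaged 20 ± 6.2 CPM in NDEA livers and 7.56 ± 3.23 CPM in control livers (adjusted p = 0.0466, limma-voom). Nme1, a nucleoside diphosphate kinase, averaged 68.7 ± 9.83 CPM in NDEA livers and 42.1 ± 10.9 CPM in control livers (adjusted p = 0.0378, limma-voom). For context, the proliferation marker Mki67 averaged 36.5 ± 9.07 CPM in NDEA livers and 4.04 ± 0.946 CPM in control livers (adjusted p = 3.56e-04, limma-voom). Cdkn1a, the p53 target that blocks cyclin-dependent kinases and binds PCNA, averaged 327 ± 47.9 CPM in NDEA livers and 23.5 ± 16.7 CPM in control livers (adjusted p = 2.58e-09, limma-voom).

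In bone marrow, none of the 46 tested genes of the set was called, and neither was any of the 9239 genes tested (0%). The smallest adjusted p over all genes was 0.247 (limma-voom), and neither limma-trend nor a fit with library quality weights called any gene. Without control marrow 3, 111 genes were called higher and 207 lower. At an unadjusted p under 0.05 stood 11 of the 46 (23.9%) and 1336 of all genes (14.5%). Estimates lay above 0 for 27 of 46, against 44.3% of all genes, with a median log2 fold change of 0.07 for the set and -0.10 for all. The 3 untested genes were Orc1, Rrm2 and Rrm2b.

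Cdt1 had the smallest p of the set in marrow, at 475, 329, 621 and 683 CPM in NDEA marrow 1 to 4, against 175, 236, 433 and 225 CPM in control marrow 1 to 4. Control 3 overlapped the NDEA range, and the log2 fold change was 1.00 (SE 0.28, adjusted p = 0.247, limma-voom). The clamp loader gene Rfc2 had 533, 299, 607 and 551 CPM in NDEA marrow, against 95.1, 234, 491 and 235 CPM in control marrow, with control 3 again inside the NDEA range. Pole2 had 122, 125, 215 and 268 CPM in NDEA marrow, against 56.6, 69.3, 160 and 94.4 CPM in control marrow, with the same overlap. Without control marrow 3, Cdt1, Rfc2 and Pole2 were called higher, with log2 fold changes of 1.24, 1.40 and 1.21 and adjusted p of 0.0162, 0.018 and 0.0344 (limma-voom). Each of the 3 passed in 2 of 19 alternatives, and the adjusted p ran from 0.0162 to 0.999 for Cdt1, from 0.018 to 0.999 for Rfc2 and from 0.0344 to 0.999 for Pole2.

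Geminin had an estimate below 0 in marrow, with 7.65, 6.54, 5.40 and 1.19 CPM in NDEA libraries, against 25.6, 19.2, 12.1 and 13.8 CPM in control libraries. The groups did not overlap, and the log2 fold change of -1.90 (SE 0.62) was not called (adjusted p = 0.25, limma-voom). Orc2 was also below the controls without overlap, and Dut and Mcm4 above them. Over all marrow genes 2.57% separated upward and 3.03% downward. The genes called in liver had marrow log2 fold changes of 0.29 for Lig1, 0.24 for Dut, 0.01 for Tk1, -0.11 for Rrm1 and 0.39 for Rfc3.

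Most of the set was well above the filter level in marrow. Dut had 436, 431, 440 and 431 CPM in NDEA marrow, against 379, 292, 415 and 401 CPM in control marrow. Pcna had 255, 344, 334 and 315 CPM in NDEA marrow, against 353, 280, 278 and 378 CPM in control marrow, with overlapping groups. Rrm1 averaged 139 ± 10.7 CPM in NDEA marrow and 153 ± 28.2 CPM in control marrow (SD, n = 4 each). By contrast Rrm2 totalled 3 counts over the 4 NDEA libraries and 4 over the 4 control libraries, and Rrm2b was at 0 counts in 3 NDEA libraries and all 4 controls. Orc1 reached 3.19 CPM in NDEA marrow 2 and was lower in the other marrow libraries. The erythroid marker Gata1 and the neutrophil marker Ltf were also at 0 counts in both marrow groups, where other markers of those cells were abundant. A count near 0 in this 3′-end assay is therefore not read as absence of the transcript, and whether 3′ ends went unassigned was not tested. The median coefficient of variation of tested genes was 0.253 in NDEA marrow and 0.252 in control marrow, and over all genes it was 0.382 in NDEA marrow and 0.346 in control marrow.

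Marker sums also moved in marrow, and their part in the results was not tested. Skeletal muscle markers, 7 genes, summed to 56.8 to 71.8 CPM in NDEA marrow and 132 to 508 CPM in control marrow. Megakaryocyte markers, 7 genes, summed to 164 to 298 CPM in NDEA marrow and 352 to 675 CPM in control marrow, with Tubb1 at 0 in both groups and Gp1bb at 0 in NDEA marrow. Erythroid and neutrophil sums overlapped between the groups. Of 63 tested genes in the further replication list, none was called in marrow, and their median log2 fold change was -0.29.

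Liver held far less of these transcripts than marrow. With all 16 libraries scaled together, the median gene stood in NDEA liver at 17.3% of its control marrow level, and in control liver at 8.41% (46 genes). In control liver against control marrow, 40 of 46 tested genes were lower and 1 was higher (limma-voom), where 66.1% of 10071 genes were called, 33.4% lower and 32.8% higher. The median log2 fold change of the set was -3.73. Cdc6 and Uhrf1 were at 0 counts in all 4 control livers, so no size is given for their differences. The gene that was higher was Rfc1 (log2 0.55, adjusted p = 0.0326, limma-voom), a call that held in 9 of 17 alternatives, with library totals alone giving a log2 fold change of 0.22 and a median of -0.34 over all genes, where trimmed-mean scaling gave -0.02. The genes not called were Orc3, Orc4, Orc5, Rpa3 and Prim2.

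**Figure D4:**
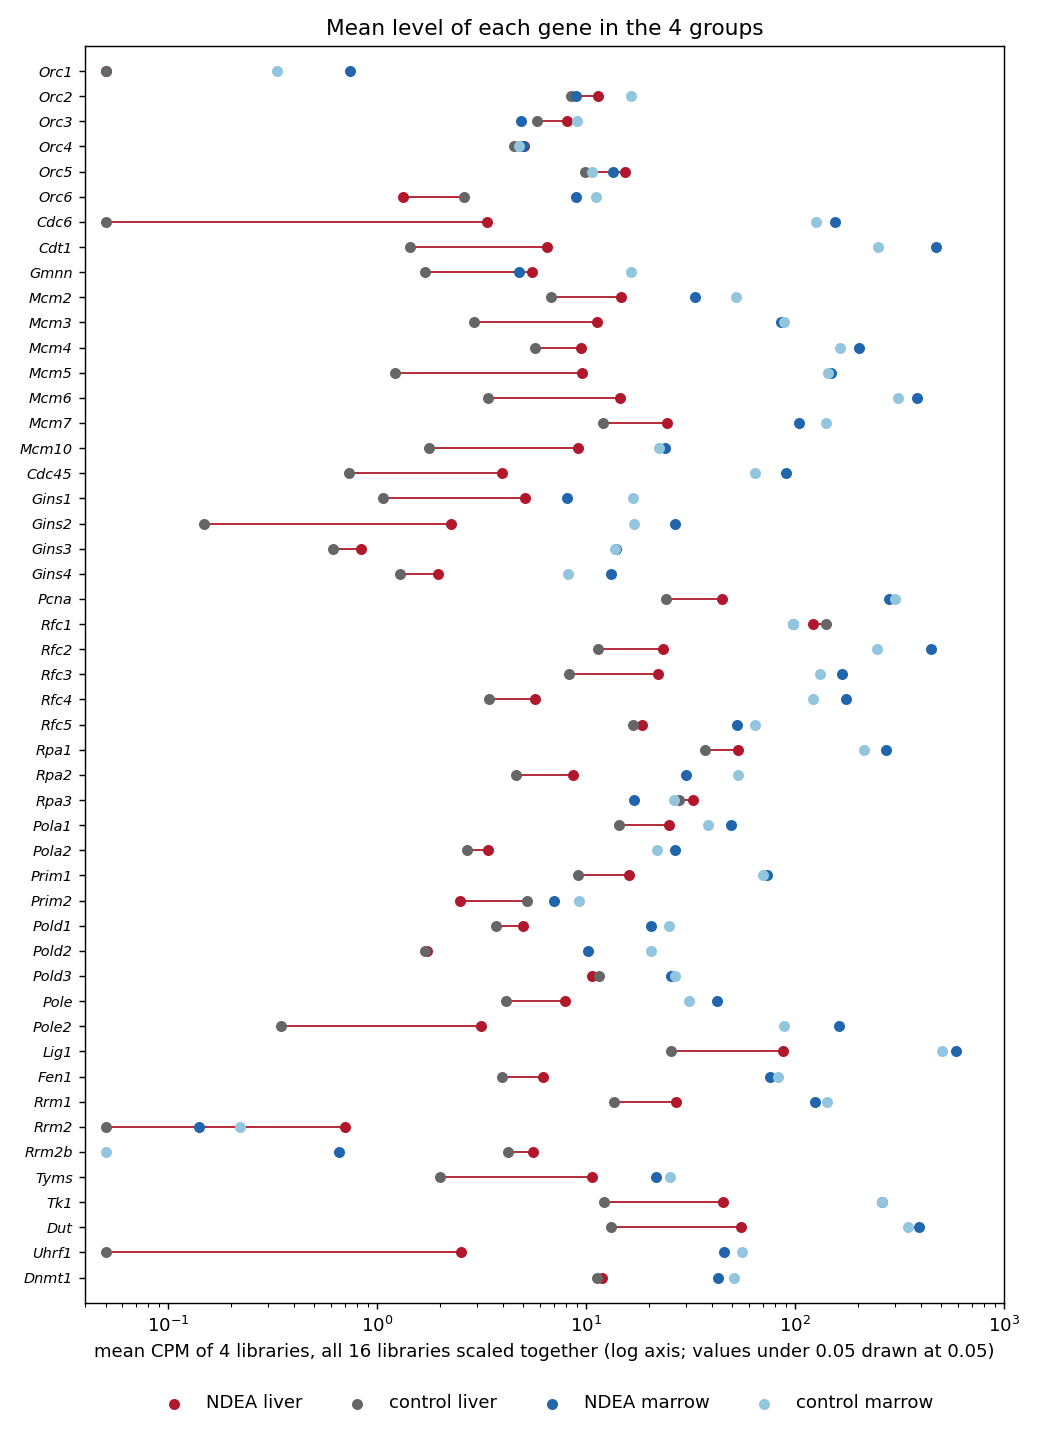
Mean scaled CPM of 4 libraries (x axis, log scale, 16 libraries scaled together) for each of the 49 genes in NDEA liver, control liver, NDEA marrow and control marrow, with a line joining the liver groups. Most liver points lie far to the left of the marrow points, and Dut, Lig1 and Tk1 in NDEA liver remain below their marrow levels.

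The genes called in liver had lower mean levels in NDEA liver than in control marrow, a comparison given without a test. On this common scale Lig1 averaged 87.3 CPM in NDEA liver and 506 CPM in control marrow. Dut averaged 55.2 CPM in NDEA liver and 346 CPM in control marrow, and Tk1 averaged 45.1 CPM in NDEA liver and 261 CPM in control marrow. Rrm1 averaged 27.0 CPM in NDEA liver and 142 CPM in control marrow. Tyms came closer, at 10.7 CPM in NDEA liver and 25.3 CPM in control marrow. The origin gene Orc5 averaged 15.3 CPM in NDEA liver and 10.7 CPM in control marrow.

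The NDEA effect differed between liver and marrow in 7 of 47 tested genes, each with the liver effect higher: Dut, Cdc6, Uhrf1, Tk1, Lig1, Tyms and Gmnn. Cdc6 and Uhrf1 passed the filter only through marrow and were at 0 counts in control livers. Their calls rest on the prior count and are not support for a difference. The test was the treatment-by-tissue term of limma-voom over all 16 libraries and 11261 genes, in which 2.28% of genes were called, 2.07% higher (233 genes) and 0.213% lower (24 genes). Over all genes single libraries moved these counts, to 91 higher and 11 lower without control liver 4, 144 and 19 without control liver 3, and 431 and 78 without control marrow 3. The median of all genes on this term was 0.32 and that of the set 1.17, so values are to be read against 0.32. The calls test a difference from 0 and not from 0.32. With scaling by the median of count ratios the median of all genes was 0.19. That fit called 205 genes higher and 33 lower, and Gmnn was not called. The comparison shares its libraries with the 2 within-tissue comparisons above and is not separate evidence of the liver changes.

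Dut had a difference of 1.85 log2 units (SE 0.34, adjusted p = 0.00605, limma-voom), Tk1 of 1.99 (SE 0.44, adjusted p = 0.017) and Lig1 of 1.63 (SE 0.37, adjusted p = 0.0191). Without control liver 4 the Tk1 and Lig1 differences were 1.59 and 1.59, with adjusted p of 0.0736 and 0.0561 (limma-voom), and without control liver 1 the adjusted p of Lig1 was 0.0685. Over 24 alternatives the adjusted p ran from 0.00691 to 0.0736 for Tk1 and from 0.0104 to 0.0685 for Lig1. Tyms had a difference of 4.32 (SE 1.00, adjusted p = 0.0209, limma-voom), beside marrow values of 15.5, 27.3, 28.1 and 24.7 CPM in NDEA marrow and 28.1, 26.8, 23.7 and 30 CPM in control marrow. Without control liver 4 the adjusted p of Tyms was 0.119, and without control liver 1 it was 0.102 (limma-voom), with a range of 0.0158 to 0.119 over 24 alternatives. The call of Tyms was also lost with limma-trend and its prior count of 2 (adjusted p = 0.0853), and it held in 20 of 24 alternatives.

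Cdc6 and Uhrf1 differed by 4.77 and 4.91 log2 units (adjusted p = 0.00914 and 0.0111, limma-voom). Both genes were under the liver filter and entered this fit through marrow, where they were abundant. Control livers were at 0, so the sizes and the p-values rest on the prior count, as they do in the alternatives, and only the direction is read. Cdc6 in marrow had 186, 147, 155 and 202 CPM in NDEA libraries and 107, 110, 170 and 155 CPM in control libraries, with overlap. Uhrf1 in marrow had 32.4, 58.4, 65.0 and 46.5 CPM in NDEA libraries and 80.0, 45.0, 56.3 and 59.0 CPM in control libraries, also with overlap. Gmnn differed by 3.90 (SE 1.05, adjusted p = 0.0497, limma-voom), with estimates of opposite sign in the 2 tissues, and its call held in 10 of 24 alternatives (adjusted p from 0.0362 to 0.126). Rrm1 and Rfc3, called in liver, had differences of 1.17 and 1.23 that were not called (adjusted p = 0.0817 and 0.243, limma-voom). Of 68 tested genes in the further replication list, 4 had a higher effect in liver (Top2a, Fam111a, Mthfd1l and Aprt) and none a lower one.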

How the data were processed

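RNA-seq counts per gene from 16 libraries of female Big Blue rats, 4 each of NDEA liver, control liver, NDEA marrow and control marrow, were analysed. The kit was Lexogen's QuantSeq for mRNA 3′ ends, per the labels' protocols. Per the submitters' processing notes, the authors used STAR and DESeq2. Tool versions, the read counter, the build and the annotation were not given in the sources used here. The labels name no molecular identifiers, so floors cover counting error only.

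The deposited table holds whole counts, but part of it was damaged. Of 32635 lines after the header, 15591 were held as quoted cells, 12 of them continuations of broken records. After rejoining, 32623 gene records were read, and the authors' group totals equalled the sums of the counts in 16313 of 16313 records that hold them. Because a plain reading of the file is not whole numbers throughout, the unit was recorded as other than counts, and limma-voom took the place of count models. Unnamed columns of the authors' comparisons were not used.

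Each tissue was filtered and fitted alone with R 4.3.3 and limma 3.58.1. A gene was kept if at least 4 libraries reached the CPM that 10 counts make in the library of median size, and its counts summed to at least 15. Scaling was by trimmed means of M values (trims of 0.3 and 0.05), with a prior count of 0.5. P-values were two-sided and adjusted by Benjamini-Hochberg over all genes tested. Fits used treatment alone, or tissue, treatment and their product for the difference. The fit was also run on data simulated with known changes, and no result above rests on that run. Genes given by library are those called in liver, marrow or the difference, plus a fixed list of main factors. The members and all lists were chosen with earlier results of these data known. The labels describe separate rats but do not tie libraries to them, so p-values measure the spread between these samples.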

Additional observations from a re-analysis of the deposited data

Results flagged for a closer look

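In 16 of 176 groups of 4 libraries examined, 1 library stood apart from the other 3 by Dixon's criterion. Chance meets that criterion in about 1 group in 20 if values are independent and normal. Low counts and libraries shared between genes were not allowed for, so 16 is not read as an excess. In NDEA liver the flagged values were Mcm5, low in replicate 4 (0.3 CPM), and Rrm2b, high in replicate 3 (14.3 CPM). In control liver they were Cdt1 and Gins4 in replicate 2 (3.68 and 4.03 CPM), Gmnn and Mcm3 in replicate 3 (4.15 and 7.39 CPM) and Mcm6 in replicate 1 (5.47 CPM). Each of these control liver values was the highest of its group. In NDEA marrow Orc6 was high in replicate 3 (15.2 CPM) and Mcm10 in replicate 1 (37.3 CPM). Pold1 was low in NDEA marrow replicate 3 (15.8 CPM) and Pold2 in replicate 4 (6.13 CPM). In control marrow Gins3 and Pola2 were high in replicate 3 (21 and 45.7 CPM), as were Rpa3 and Fen1 in replicate 1 (52.0 and 122 CPM). Prim1 was low in control marrow replicate 3 (52.9 CPM). Control marrow 1 was also the shallowest library.

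The NDEA effect in liver exceeded that in marrow in the treatment-by-tissue term of limma-voom for 7 genes. The log2 differences were 4.77 for Cdc6, 3.90 for Gmnn, 1.63 for Lig1, 4.32 for Tyms, 1.99 for Tk1, 1.85 for Dut and 4.91 for Uhrf1. They are to be read against the median of all genes, 0.32, whereas the calls test a difference from 0. The sizes and p-values for Cdc6 and Uhrf1 rest on the prior count, and only their direction is read. Of 24 alternatives, the call held in 10 for Gmnn and in 20 for Tyms.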

How the results depend on the processing

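In liver, 5 genes of the set were called. Limma-trend called 9, the mitochondrial share as a covariate left 2 (Lig1 and Tk1), and leaving out single libraries gave 3 to 5, with 3 without control 2, 3 or 4 or without NDEA 2. Over all liver genes, 277 were called higher and 362 lower, against 362 and 368 with limma-trend and 59 and 95 with the mitochondrial covariate. Those counts were 223 and 377 without control 2, 167 and 272 without control 3, and 186 and 296 without control 4. Without NDEA 2 they were 205 and 269. In marrow 0 were called, and leaving out single libraries gave 0 to 3, with 3 without control 3. For the difference between tissues 7 were called, and leaving out single libraries gave 3 to 8, with 4 without control liver 1 and 3 without control liver 4. Over all genes the fit without control liver 1 called 171 higher and 17 lower, and that without control liver 4 called 91 and 11. For control liver against control marrow, 41 were called and 39 to 41 with single libraries left out. Fitting all 16 libraries at once called 12 marrow genes higher and 57 lower, none of the set. No called value changed direction under any alternative run. Same-numbered libraries did not deviate together (correlations of -0.0216 to 0.0489) and not every library correlated best with its own number, so the numbers were not taken as pairs. With the replicate block the counts were 9 in liver, 6 for the difference (without Tyms) and 39 between tissues. In marrow the block called 3 with all 8 libraries kept (Cdt1, Rfc2 and Pole2). Over all genes the block called 395 higher and 462 lower in liver, and 65 and 186 in marrow. For the difference it called 339 and 43, and between tissues 3115 and 3115. Of the tested genes, 32 of 42 in liver and 32 of 46 in marrow kept the sign of their estimate throughout. Control liver levels near 0 counts limit what can be read for Cdc6, Uhrf1, Rrm2 and Tyms.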
